A study of Mus musculus with 4 samples.

Results

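Nefh, Nrgn and Kirrel2 are 3 genes best known from neurons and from adhesion between cells, and their read counts were examined in cells sorted from mouse tumors. They were chosen by their counts in these libraries, because each was nearly absent in one group and present in the other, and they are 3 of the 55367 genes in the deposited tables. Their levels and the differences between the groups are therefore given as a description, without a test.

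The 4 libraries were made from polyadenylated RNA of cells sorted for CD45.2 and CD8 after tumors of the B16-F10 line were dissociated. This melanoma line of the mouse grows as a tumor after injection. CD45.2 marks blood-derived cells of the host and CD8 marks cytotoxic T cells. Library titles gave 2 libraries labeled WT and 2 labeled KO. The design text of the series names wild-type mice and mice carrying floxed Satb1, a chromatin organizer of T cells, with either ThPOK-cre or E8I-cre, drivers used to delete genes in CD4+ and CD8+ T cells respectively, and does not say which of them stands behind the KO label. The labels give neither the age of the animals nor whether the libraries of a group came from separate animals, so every SD and p-value measures only the spread between these libraries. Counts of Satb1 itself were lower in WT (7 and 5) than in KO (131 and 55), against the label. Per 1000 counts on the 12 T cell markers described below, Satb1 had 22.1 and 9.19 in WT and 11.3 and 7.43 in KO, where the groups overlapped, so that Satb1 did not settle the labels. All directions are those of the libraries as labeled. Where 4 values are given in a row, the first pair belongs to WT 1 and WT 2 and the last pair to KO 1 and KO 2.

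Nefh encodes the heavy chain of the neurofilament, the intermediate filament of axons, where it assembles with a light and a medium chain. Nrgn encodes neurogranin, a small protein of dendritic spines that binds calmodulin through an IQ motif and releases it when calcium rises; its transcript is also known from platelets. Kirrel2 encodes an immunoglobulin-superfamily adhesion protein of the Kirrel and nephrin family, known from sensory neurons, the slit diaphragm of the kidney and pancreatic islets.

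All 3 genes lie on the minus strand of GRCm38/mm10 and are protein coding in GENCODE M21. Nefh (ENSMUSG00000020396.8) spans chr11:4938754-4948064 with 3994 exonic bases, Nrgn (ENSMUSG00000053310.11) spans chr9:37544492-37552904 with 1453, and Kirrel2 (ENSMUSG00000036915.17) spans chr7:30447534-30457690 with 3939. No other annotated gene overlaps any of them, so that reads of an overlapping or antisense gene could not be counted for them under this annotation.

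The promoter sequences are shown because many neuronal genes carry RE1, the element bound by the repressor REST, which silences neuronal genes outside the nervous system. Sequences upstream of the start were taken from RefSeq on GRCm38.p6 for 2 of the 3 genes, and Nefh is named only. The Kirrel2 sequence is chr7:30457516-30457765, the 250 bases before the RefSeq start. The GENCODE gene of Kirrel2 extends 175 bases beyond that start, so that this part of the sequence lies inside the gene. The Nrgn sequence is chr9:37552905-37552995, the 91 bases that precede the GENCODE start. Both are written 5′ to 3′ on the minus strand, and capitals mark TTCAGCACC, the left arm of RE1, and GGGCGG, the GC box.

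Kirrel2: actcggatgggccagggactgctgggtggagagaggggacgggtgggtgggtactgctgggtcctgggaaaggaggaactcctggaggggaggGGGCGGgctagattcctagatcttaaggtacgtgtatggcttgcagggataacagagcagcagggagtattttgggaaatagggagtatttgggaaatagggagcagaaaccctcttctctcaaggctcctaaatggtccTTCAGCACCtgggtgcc

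Nrgn: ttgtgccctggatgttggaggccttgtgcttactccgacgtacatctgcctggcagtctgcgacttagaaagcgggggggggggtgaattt

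The letters TTCAGCACC ended 8 bases short of the RefSeq start of Kirrel2 and, on either strand, were found in 99 (0.301%) of 32851 promoter windows of the same length. They were not found in the 250-base window of Nrgn. The core of the right arm of RE1, which does not overlap the left and was searched separately as GGACAG, was in neither window and in 18.7% of all windows. GGGCGG was in both full windows and in 32.7% of all windows, CCAAT was in that of Nrgn only against 33.8%, and TATAAA was in neither against 12.4%. GC content was 56.4% in the Kirrel2 window and 58.4% in the full Nrgn window, against a median of 52.4%. A match in letters is a description of the window and does not show binding.

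Nefh was detected only in the libraries labeled KO. Its counts were 0 and 0 in WT and 75 and 80 in KO. Normalized CPM (counts scaled to a common library size with the trimmed-mean factors of edgeR) were 14.1 in KO 1 and 13.9 in KO 2, a mean of 14.0 ± 0.171 (SD, n = 2). The libraries labeled KO were nearly equal, at a ratio of 1.02, and both lay far from those labeled WT. Taking 3 counts in each WT library as the limit that 0 counts allow, which is 0.899 CPM in WT 1 and 0.740 CPM in WT 2, Nefh was at least 17.1-fold higher in KO.

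Nrgn was close to absent in WT and abundant in KO. Its counts were 3 and 2 in WT and 354 and 196 in KO. Its normalized CPM was 0.899, 0.494, 66.7 and 34.1, a mean of 0.696 ± 0.286 in WT and 50.4 ± 23.1 in KO (SD, n = 2). The libraries labeled KO differed by 1.96-fold from each other. The ratio of KO to WT from pooled counts was 73.5, with an exact 95% interval from 31.3 to 227 that covers counting error only, as do all intervals and limits given here, since reads that carry no molecular identifier may be copies of 1 molecule.

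Kirrel2 ran in the opposite direction. Its counts were 176 and 46 in WT and 3 and 1 in KO. Its normalized CPM was 52.7, 11.4, 0.566 and 0.174, a mean of 32.0 ± 29.3 in WT and 0.370 ± 0.277 in KO (SD, n = 2). The libraries labeled WT were 4.64-fold apart, the widest gap among the 3 genes within the group where each was present. The pooled ratio of WT to KO was 83.1 (95% interval 32.0 to 308). It fell to 31.4 without WT 1 and rose to 146 without WT 2 and to 173 without KO 1, while its direction was fixed by the choice of the gene.

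For all 3 genes the groups did not overlap, as their choice required. Over the 11837 genes with enough counts to be tested, the groups did not overlap for 47.9%.

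**Figure D1:**
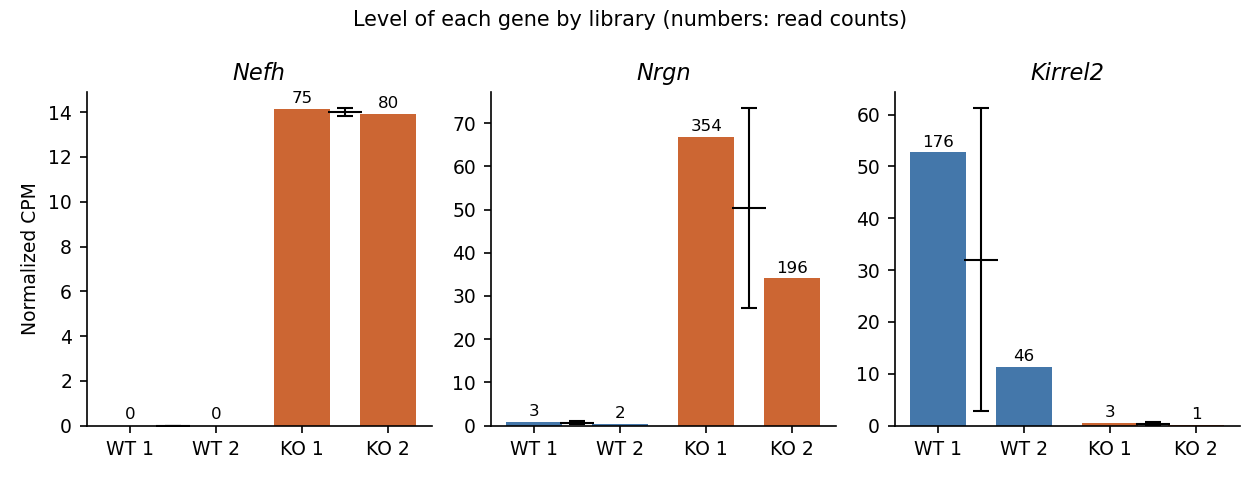
Normalized CPM (vertical axes, linear, a separate scale for each gene) of Nefh, Nrgn and Kirrel2 in the 4 libraries, with the read count printed above each bar and the group mean ± SD (n = 2) drawn between its libraries. Nefh and Nrgn were present in KO 1 and KO 2 and at 0 to 3 counts in WT, whereas Kirrel2 had 176 and 46 counts in WT and 3 and 1 in KO.

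Within their own libraries these were middling to well expressed transcripts. Per kilobase of exon, the level in the group where each was present was 3.51 ± 0.0428 CPM for Nefh, 34.7 ± 15.9 CPM for Nrgn and 8.13 ± 7.43 CPM for Kirrel2 (SD, n = 2). Nrgn thus stood highest per length, although the short exons of Nrgn gave it fewer bases to be counted on. Nefh exceeded 61.8% and Nrgn 91.7% of the 19446 genes detected in KO, whose median was 1.73 CPM per kilobase. Kirrel2 exceeded 72.8% of the 17106 genes detected in WT, whose median was 2.04. Kirrel2 and Nefh were not ordered beyond their spread, since WT 2 had 2.88 CPM per kilobase of Kirrel2, below Nefh in both libraries labeled KO.

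Few genes showed such near-absence. With at most 5 counts summed over one group and at least 40 in each library of the other, limits set here only to describe the surroundings of the 3 genes, 42 genes, Nefh and Nrgn among them, were found higher in KO and 3 higher in WT. Of the 42, 9 including Nefh had 0 counts in both libraries labeled WT, and Nrgn was the 2nd and Nefh the 24th most counted in KO. The 3 genes higher in WT were Kirrel2 and the X-linked Xist and Tsix, which are antisense to each other and cannot be told apart without strand. Of the 42, 5 lie on chromosome X or Y. Nrn1, the gene of neuritin, which promotes the growth of neurites, was also among the 42 and was picked for mention after its values were seen. Nrn1 had 2, 1, 179 and 44 counts. It does not stand for the 42, which also held Gata3, Bcl11b, Tigit, Trdc, Gimap5, Itm2a and Camk4, likewise picked after their values were seen.

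The sequencing behind these values was modest and similar between libraries. Counts on genes ran from 4017875 in WT 1 to 5382915 in KO 2, and reads on genes made up 20.5 to 28.8% of all reads in the tables. Genes with a count numbered 15684 and 15804 in WT and 18655 and 16656 in KO. Of the tested genes, 68 (0.574%) passed the threshold of 0.05 in the quasi-likelihood test of edgeR with Benjamini-Hochberg adjustment, 65 (0.549%) of them higher in KO, and 1619 had an unadjusted p under 0.05. The median log2 fold change over all tested genes was 0.05.

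Markers of T cells, the cells of the labeled sort, moved with Nefh and Nrgn. The 12 T cell markers, among them Cd3e, Cd8a and Trac, summed to 317 and 544 counts in WT and to 11632 and 7398 in KO. As a share of gene counts this was 0.00789% (95% Clopper-Pearson interval 0.00705 to 0.00881%) and 0.0128% (0.0117 to 0.0139%) in WT and 0.260% (0.255 to 0.264%) and 0.137% (0.134 to 0.141%) in KO. No T cell marker was at 0 in any library. The 13 myeloid markers, among them Lyz2, Csf1r and C1qa, summed to 107922, 159058, 98261 and 148606 counts, which ranged from 2.19% of gene counts in KO 1 (2.18 to 2.21%) to 3.73% in WT 2 (3.71 to 3.75%), and none was at 0. In all 4 libraries the myeloid markers held a larger share than the T cell markers, against the labeled sort.

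Of the 12 T cell markers 9 passed the threshold of edgeR, all higher in KO, as did 3 of the 6 tested markers of fibroblasts and endothelium and 1 of the 10 melanoma markers, against 0.549% of all tested genes. Of the 13 myeloid markers 0 did, with 4 at an unadjusted p under 0.05. As summed normalized CPM, the T cell markers were 15.2-fold higher and those of fibroblasts and endothelium 17.7-fold higher in KO than in WT, while the myeloid markers were 0.619 times as high. The rise of the joint fibroblast and endothelium list lay in the fibroblast genes Col1a1, Col1a2, Col3a1 and Dcn, mostly in KO 1, whereas the endothelial genes Kdr (82, 49, 25 and 40 counts), Cdh5 (1, 6, 1 and 1) and Pecam1 (51, 63, 70 and 124) did not pass the threshold or were not tested. The melanoma markers summed to 4438, 2334, 11940 and 10241 counts. Gpnmb, a melanoma gene also expressed by macrophages, supplied 3552 and 1201 of those in WT and 1321 and 3215 in KO. The other 9 melanoma markers, among them Tyrp1 and Pmel, summed to 886, 1133, 10619 and 7026 counts, 5.91-fold higher in KO by summed CPM, with none at 0. Markers of fibroblasts and endothelium summed to 165, 131, 6635 and 1134 counts, and those of dendritic cells to 489, 794, 1672 and 1094. The B cell markers summed to 352, 908, 2198 and 1017 counts and the neutrophil markers to 629, 504, 266 and 789. The NK cell markers had 0, 11, 110 and 12 and the erythroid markers 23, 3, 0 and 229. In such bulk libraries fewer cells of a type and less RNA per cell cannot be told apart.

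Set against the markers of T cells, melanoma, dendritic cells or fibroblasts and endothelium, the difference of Nefh and Nrgn was smaller than on the CPM scale. Set against the myeloid markers, the largest of these lists in every library, it was larger, with a pooled ratio of 119 (50.7 to 368) for Nrgn and at least 27.9-fold for Nefh. The ratio of Nrgn to myeloid markers was 70.4 without KO 1 and 192 without KO 2. Per 1000 T cell marker counts, Nrgn had 9.46 and 3.68 counts in WT and 30.4 and 26.5 in KO. The pooled ratio of KO to WT was 4.98 (95% interval 2.12 to 15.4), compared with 73.5 on the CPM scale, and went to 7.86 without WT 1 and 3.05 without WT 2. Nefh had 6.45 in KO 1 and 10.8 in KO 2, and its 0 counts allowed up to 9.46 in WT 1 and 5.51 in WT 2. By library these values and limits overlapped, and pooled they were 8.15 in KO against a limit of 6.97 in WT, a bound of at least 1.17-fold. The bound was under 1 without WT 2 (0.861) or without KO 2 (0.925), and was 1.48 without WT 1 and 1.55 without KO 1. A lower bound under 1 does not tell whether Nefh differed between the groups on this scale. Relative to the markers of fibroblasts and endothelium, Nrgn had 18.2 and 15.3 counts per 1000 in WT and 53.4 and 173 in KO, and Nefh had 11.3 and 70.5 in KO against limits of 18.2 and 22.9 in WT. KO 1 supplied 6635 of the counts of these markers, and the pooled ratio of Nrgn was 4.19 (1.79 to 12.96) with it and 10.2 without it. Nefh lay under both limits in KO 1 and above both in KO 2.

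Relative to the melanoma markers without Gpnmb the gap was wider. Per 1000 of their counts Nrgn had 3.39, 1.77, 33.3 and 27.9 counts, a pooled ratio of 12.6 (5.36 to 38.9). Nefh had 7.06 and 11.4 in KO, above the 3.39 and 2.65 that 0 counts allowed in WT. With Gpnmb kept in the list the difference would be larger, since most of that list in WT was Gpnmb. Between KO 1 and KO 2 the ratio of normalized CPM was 1.71 for the T cell markers, 1.64 for the melanoma markers without Gpnmb and 6.35 for fibroblasts and endothelium, beside 1.96 for Nrgn and 1.02 for Nefh. The part of any of these cells in the levels of Nefh and Nrgn was not tested.

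**Figure D2:**
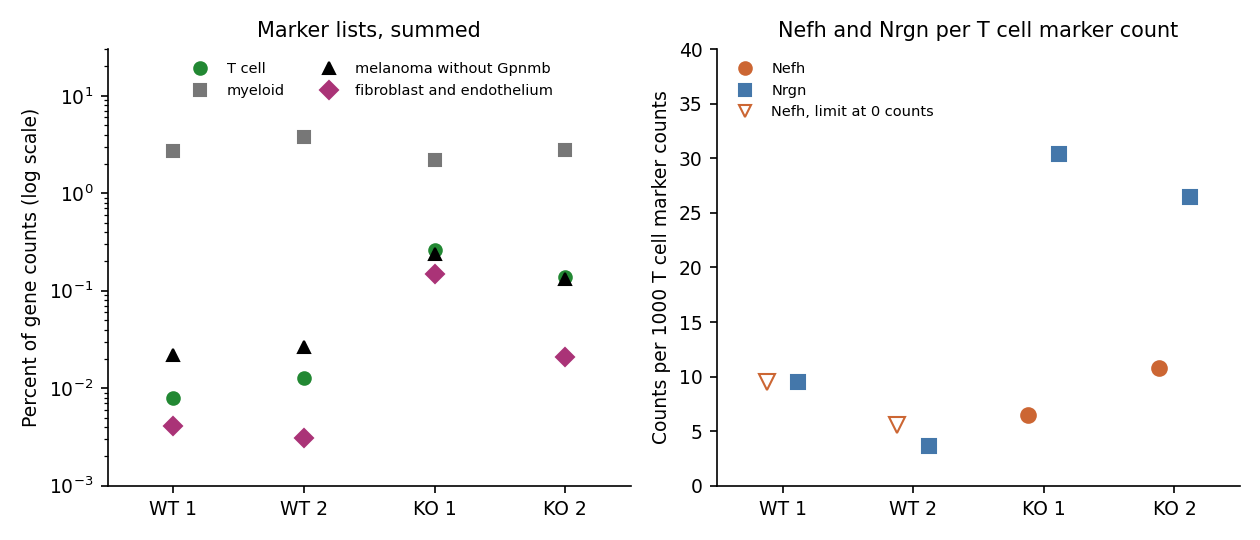
Left, the share of gene counts on T cell, myeloid, melanoma (without Gpnmb) and fibroblast and endothelium markers in each library, in percent on a log scale. Right, Nefh and Nrgn counts per 1000 T cell marker counts (linear axis), where open triangles are the limits of 9.46 and 5.51 that 0 counts of Nefh allow in WT 1 and WT 2. T cell markers rose from 317 and 544 counts in WT to 11632 and 7398 in KO, and on that scale the Nrgn values of 30.4 and 26.5 in KO stayed above those in WT while the Nefh values of 6.45 and 10.8 overlapped the WT limits.

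Kirrel2 was set against the same markers. Per 1000 myeloid counts it had 1.63 and 0.289 in WT and 0.0305 and 0.00673 in KO. The pooled ratio of WT to KO was 51.3 (95% interval 19.8 to 190), below the 83.1 on the CPM scale. It depended on each library, at 17.8 without WT 1, 101 without WT 2, 124 without KO 1 and 27.2 without KO 2. Between WT 1 and WT 2 the myeloid markers stood at a ratio of 0.823 by normalized CPM and Kirrel2 at 4.64. The part of myeloid cells in the level of Kirrel2 was not tested. Relative to dendritic cell markers Kirrel2 was also higher in WT, at 360 and 57.9 per 1000 marker counts against 1.79 and 0.914 in KO, a pooled ratio of 119.7. Per 1000 counts in WT 1 and WT 2 Kirrel2 had 199 and 40.6 for melanoma markers without Gpnmb, 555 and 84.6 for T cell markers, and 1067 and 351 for fibroblasts and endothelium, and at most 0.882 in either library labeled KO. The pooled ratios for these 3 lists were 485, 1227 and 1457. They went to 179, 402 and 682 without WT 1 and to 876, 2641 and 2072 without WT 2. That for dendritic cells went to 40.1 without WT 1 and to 249 without WT 2.

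Platelets, a known source of Nrgn, were followed through 8 marker genes. Their sum of 1305, 1085, 360 and 2195 counts was mostly Pf4, which macrophages also express. Without Pf4 it was 35, 5, 31 and 150 counts, and the platelet glycoprotein genes Gp9 and Gp1bb were at 0 in all 4 libraries. As summed CPM the markers without Pf4 were 10.5 and 1.23 in WT and 5.85 and 26.1 in KO, so that KO 2 alone set the ratio of KO to WT, which was 2.72 with it and 0.998 without it. The part of platelets in the level of Nrgn was not tested.

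No neighboring gene was near absent in one group and present in the other. Beside Nefh, Thoc5, a subunit of an mRNA export complex that lies 9886 bases away, had 120, 113, 139 and 242 counts. Ap1b1, a clathrin adaptor subunit on the other side of Nefh, had 797, 942, 407 and 2176. Beside Nrgn, Vsig2 ends 286 bases away and had 0, 0, 3 and 0 counts, and Siae, a sialic acid esterase gene 2793 bases away, had 159, 193, 263 and 249.

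Kirrel2 lies head to head with Nphs1, the gene of nephrin, a partner of Kirrel proteins, with 624 bases between the genes. Nphs1 had 10, 7, 22 and 5 counts, so that its groups overlapped while those of Kirrel2 did not. On the other side of Kirrel2, Aplp1, an amyloid precursor-like gene of neurons, had 6, 10, 9 and 35 counts.

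The genes with the nearest pattern over the 4 libraries were then sought among 11836 tested genes, by the root mean square difference in log2(CPM + 1) after centering each gene on its mean. Nefh was nearest to Gimap4, Cd8a and Skap1, with differences of 0.16, 0.16 and 0.17. All 3 genes are known from lymphocytes, Cd8a being the CD8 coreceptor, Gimap4 a lymphocyte GTPase and Skap1 an adaptor of the T cell receptor. Their counts were 16, 22, 593 and 481 for Gimap4, 24, 28, 843 and 733 for Cd8a, and 7, 9, 218 and 199 for Skap1.

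Nrgn was nearest to Ddx3y, Eif2s3y and Itm2a, with differences of 0.23, 0.26 and 0.26. Ddx3y and Eif2s3y lie on the Y chromosome and had 0 counts in both libraries labeled WT, with 188 and 81 and with 146 and 119 counts in KO. Itm2a, an X-linked membrane protein gene known from T cells, had 1, 0, 180 and 84. Genes of the sex chromosomes split the libraries as the labels do, so that sex and label cannot be told apart for any of the 3 genes.

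Kirrel2 had no neighbor as close. Gm15056, Gdf3 and Tsix came nearest, with differences of 0.52, 0.71 and 0.73, and their counts were 119, 28, 3 and 5, then 110, 61, 8 and 11, then 266, 115, 0 and 0. Gdf3 encodes a ligand of the TGF-beta family, and Tsix is the antisense transcript of Xist. Between the 3 genes themselves the difference was 0.59 for Nefh and Nrgn, 4.15 for Nefh and Kirrel2 and 4.60 for Nrgn and Kirrel2. With 4 libraries in 2 groups, a small difference says mostly that the genes split the groups by a similar amount.

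**Figure D3:**
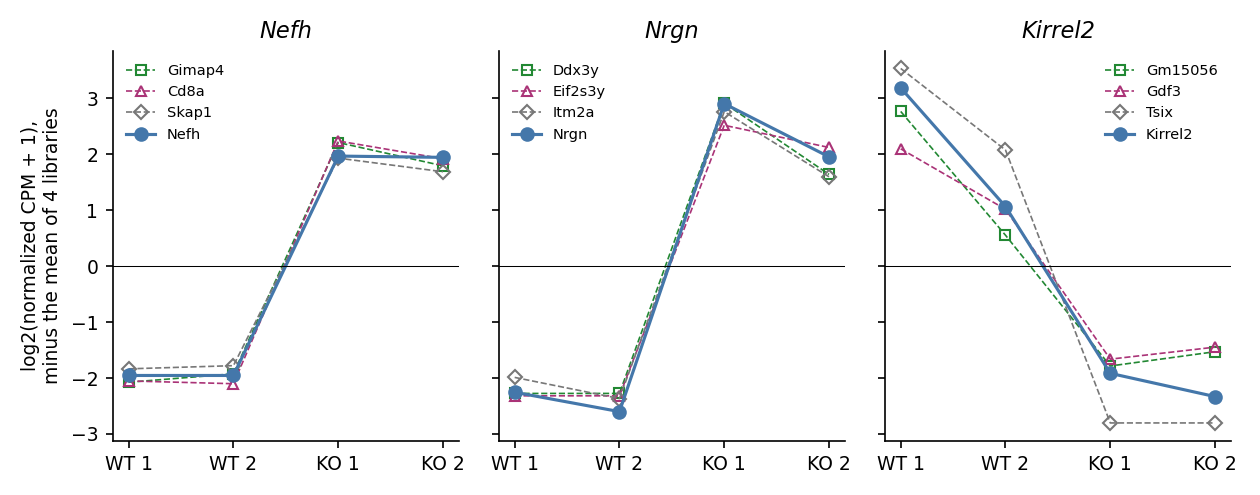
Log2(normalized CPM + 1) of Nefh, Nrgn and Kirrel2 (filled circles, solid line) and of the 3 genes nearest to each (open symbols, dashed), minus each gene's mean over the 4 libraries. The genes nearest to Nefh lay within 0.17 of it and those nearest to Nrgn within 0.26, whereas the nearest to Kirrel2 was 0.52 away.

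The known partners of each protein were compared between the groups next, with 156 genes on 8 lists, to see which of them accompanied the 3 genes. Of these, 155 were in the tables, 36 had no count in any library and 74 were tested. There were 2 past the threshold, Camk4 and Prkcq, both higher in KO and both on the calmodulin list, against 0.549% of all genes called in that direction. The groups did not overlap for 37 of the 74, against 47.9% of all genes, and 13 (17.6%) had an unadjusted p under 0.05, against 13.7% of all tested genes. The shares without overlap and at an unadjusted p under 0.05 were near those over all genes. The share called, 2 of 74, lay above the 0.549% and rests on 2 genes. The median log2 fold change of the 74 was 0.24, beside 0.05 over all genes, with 48 higher and 26 lower.

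The other chains of the neurofilament were not found. Nefl and Nefm, the light and medium chains, and Ina, an intermediate filament protein of the same polymer, had 0 counts in all 4 libraries, so that Nefh was counted without its partners. Prph, the peripherin of peripheral neurons, had 2, 1, 27 and 4 counts, and Mapt, the tau gene, 0, 0, 2 and 14.

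Of the 17 neurofilament partners, which include motors and kinases found in most cells, 10 were tested, with 6 higher, 4 lower, 0 past the threshold and 2 at an unadjusted p under 0.05. Their median log2 fold change was 0.28. Among the most abundant was Dync1h1, the dynein motor chain, at a log2 fold change of -0.51. The remaining intermediate filament genes were led by Vim, the vimentin of mesenchymal and immune cells. Vim had 9874, 7909, 8449 and 6442 counts and a log2 fold change of -0.85 ± 0.54 (SE) that missed the threshold (edgeR adjusted p = 0.508). The lamins Lmna and Lmnb1 had -0.67 and 0.93, and the 5 tested genes of this list had a median of -0.44, with 2 higher, 3 lower and 0 called.

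Around neurogranin, the calmodulin genes Calm2 and Calm3 did not pass the threshold, with log2 fold changes of 0.31 and -0.50 (edgeR adjusted p = 0.801 and 0.639). Pcp4 and Gap43, the other neuronal IQ-motif proteins on the list, were at 0 in every library.

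Camk4 and Prkcq were the 2 calls of the list. Camk4 is a calmodulin-dependent kinase of neurons and T cells, and had 0, 2, 93 and 93 counts. Its log2 fold change was 5.85 ± 0.99 (SE, edgeR adjusted p = 0.0414), and its pooled ratio was 62.1 (95% interval 17.0 to 517). Without WT 2 the WT group of Camk4 had 0 counts and the fitted log2 value went to 9.33, which depends on the prior count. Prkcq encodes protein kinase C theta of T cells and is grouped here with the other protein kinase C isoforms, the enzymes that phosphorylate neurogranin. It had 2, 5, 125 and 116 counts and a log2 fold change of 4.51 ± 0.72 (SE, edgeR adjusted p = 0.0321), which ranged from 4.07 to 5.08 over the alternatives. Prkca had 2, 7, 110 and 87 counts and a log2 fold change of 3.89 that missed the threshold (edgeR adjusted p = 0.0624). In the alternatives described below it passed with total gene counts, every gene with a count, the DESeq2 Wald test and either replicate block. It missed the threshold with DESeq2 size factors, upper-quartile factors and a filter of 1 CPM in 2 libraries. Over the 21 tested genes of the list 14 were higher and 7 lower, with a median of 0.22, and 5 had an unadjusted p under 0.05.

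No relative or partner of Kirrel2 was past the threshold. Kirrel3 and the podocyte genes Podxl and Wt1 were at 0 in all libraries, and Kirrel, the first member of the family, had 1, 4, 33 and 0 counts. Of 17 genes on the list 16 were in the tables and 8 were tested, with 6 higher in KO, 2 lower, 0 past the threshold and a median of 0.18. The most abundant were the widely expressed Iqgap1, Actn4 and Fyn, at log2 fold changes of -0.23, 0.27 and 1.01.

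Islet genes were examined because Kirrel2 is known from pancreatic islets. Ins2 had 11, 1, 0 and 145 counts, Ins1 4, 2, 0 and 53, and Iapp 0, 1, 0 and 64. They were counted mostly in KO 2, which alone set their direction, since KO 1 had 0 counts of each and WT had a few of Ins2 and Ins1. Ins2 was the only tested gene of the 14, at a log2 fold change of 2.86 ± 1.71 (SE) that missed the threshold (edgeR adjusted p = 0.485).

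Of 40 neuronal identity genes, 13 (32.5%) had no count at all, among them Snap25, Syt1 and Stmn2 of synapses and axons, and 12 (30%) were tested. Over all genes listed, 61.6% had no count and 21.4% were tested. These split evenly with 6 higher and 6 lower in KO, 0 past the threshold, 2 at an unadjusted p under 0.05 and a median of 0.02. Among the most abundant were Olfm1, at a log2 fold change of 0.26, and Thy1. Thy1, a surface glycoprotein of neurons and of mouse T cells, had 43, 56, 568 and 103 counts and a log2 fold change of 2.23 ± 0.75 (SE, edgeR adjusted p = 0.248). Nefh and Nrgn were counted in KO while Snap25, Syt1 and Stmn2 were at 0, and the medians of this list and of all genes differed by less than 0.1.

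The neural crest list was examined because melanocytes and Schwann cells arise from the neural crest. All 5 of its tested genes were higher in KO, with 0 past the threshold, 2 at an unadjusted p under 0.05 and a median of 2.05. Sox10, a transcription factor of melanocytes and glia, had 35, 19, 208 and 134 counts and a log2 fold change of 2.05 ± 0.60 (SE, edgeR adjusted p = 0.190). In the alternatives described below, Sox10 and Pax3 passed with every gene with a count and with the crossed replicate block. They passed in no other alternative fit that kept every library. Ednrb, the endothelin receptor B, had 35, 101, 26 and 880 counts, so that KO 2 alone set its log2 fold change of 2.15. Mbp, the myelin basic protein, had a log2 fold change of 0.37. Melanoma cells also express Sox10 and Ednrb. Against the 10619 and 7026 counts of the melanoma markers without Gpnmb in KO 1 and KO 2, Sox10 ran in the same order and Ednrb in the opposite one, and the part of melanoma cells was not tested.

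The silencer that binds RE1 was counted in every library, and its groups overlapped. Rest had 141, 129, 194 and 265 counts and a log2 fold change of 0.16 ± 0.44 (SE, edgeR adjusted p = 0.900). All 12 genes of the silencer list were tested, with 8 higher, 4 lower, 0 past the threshold, 2 at an unadjusted p under 0.05 and a median of 0.22. Its most abundant members were the corepressor Sin3b, the methyltransferase Ehmt2 and the deacetylase Hdac1, at log2 fold changes of -1.12, -0.85 and 0.66.

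**Figure D4:**
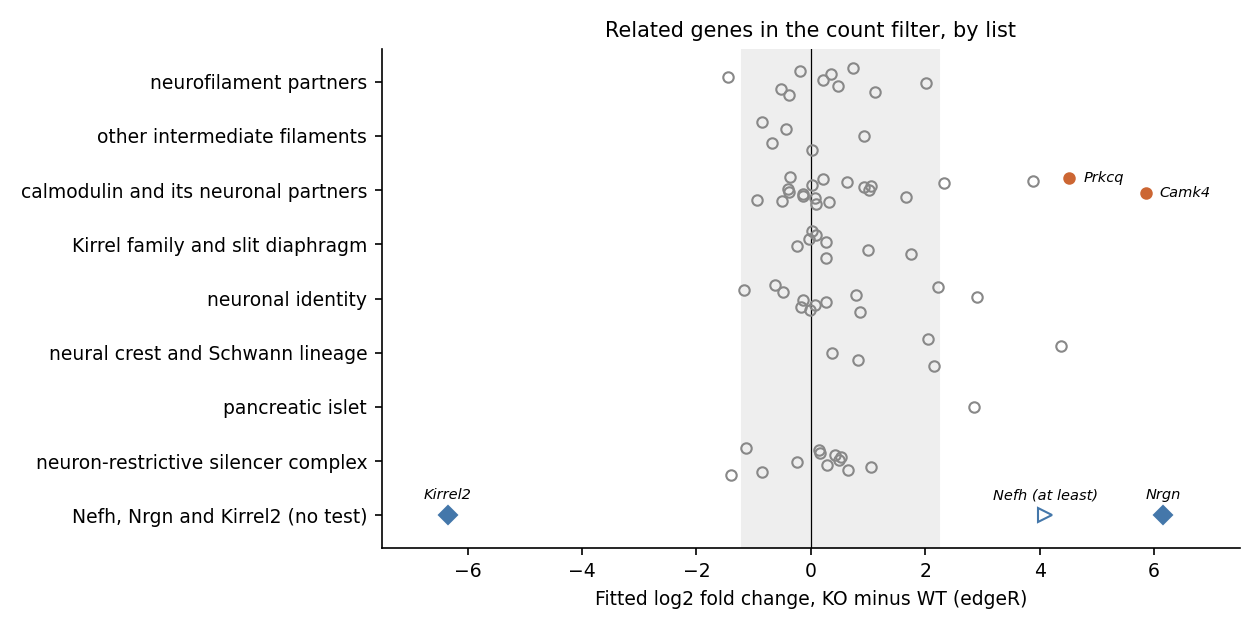
Fitted log2 fold change (KO minus WT, edgeR) of the tested genes of each related list, where filled circles are the 2 genes past the threshold, Prkcq and Camk4, and open circles the others. The grey band runs from the 5th to the 95th percentile of all tested genes, from -1.20 to 2.24. Diamonds are Kirrel2 and Nrgn, and the open triangle is the lower bound of Nefh at 4.10, all 3 without a test because they were chosen on this difference.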

How the data were processed

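RNA was measured in 4 libraries of sorted tumor cells. The authors deposited unnormalized counts of reads for each gene, with a table for each library. The submitters' processing notes name HISAT2 2.1.0, HTSeq 0.11.0 and mm10; the annotation and the strand setting of the counting are not given in the sources used here. Summary lines stayed out of the library sizes, and reads that did not align made up 30.3 to 44.2% of each table.

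Symbols were matched to GENCODE M21 (53292 of 55367) for positions and exon lengths, and to RefSeq on GRCm38.p6 for promoters. The groups were compared with edgeR 4.0.16 under R 4.3.3 (filterByExpr, TMM scaling, quasi-likelihood F test with group as the only term, two-sided, Benjamini-Hochberg adjustment over 11837 genes, threshold 0.05). Within-group variation was 42.5% (biological coefficient of variation). Intervals are exact binomial intervals on pooled counts at the 95% level. Plots used Python 3.11.15 with matplotlib 3.10.9, and the scripts were tested on simulated data.

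The 3 genes, the 8 related and 10 marker lists and the tests were chosen with earlier results of these data known. Genes were named by this rule: the 3 genes; related genes past the threshold; the 3 most abundant of each related list; the nearest protein-coding gene on each side of each of the 3; and the 3 genes with the nearest pattern to each. Some genes that the rule names are not reported here. Other genes with values in the text, among them Nrn1, Prkca, Prph, Mapt, Kirrel and Rest, and genes named at 0 counts, were chosen after their values were seen. Alternatives were other scaling factors, filters on low counts, DESeq2 1.42.0, a replicate block, removal of the mitochondrial, the ribosomal protein and the antigen receptor genes, shorter marker lists, a looser threshold, and omission of single libraries. A crossed replicate block, the melanoma list without Gpnmb and the ratios to marker lists without single libraries were added after seeing the data.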

Additional observations from a re-analysis of the deposited data

How the results depend on the processing

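Of 107 alternative values 26 moved, and the other 81 stayed within the limits set. For levels and folds of the 3 genes the limit came from the SD of 2 libraries, which is wide for Kirrel2 and Nrgn. With 1 library left out, the mean of a group of 2 cannot move beyond that SD. Those means are among the 81 and say nothing of stability. Numbers of genes past the threshold were judged by their ratio to the main number. The directions of the 3 genes were fixed by their choice and say nothing of stability. Nefh, whose replicates were close, had a mean in KO of 14.3 CPM with upper-quartile factors, 15.8 CPM with total gene counts and 14.6 CPM with mitochondrial, ribosomal protein and antigen receptor genes removed, and its lower bound was 17.7, 21.8 and 16.7 in the same order. With each library left out in turn the bound of Nefh ran from 15.6 to 18.9 and the fold of Kirrel2 from 31.4 (without WT 1) to 173 (without KO 1); that of Nrgn ran from 50.3 to 101. Without WT 1 the mean of Kirrel2 in WT was 11.4 CPM.

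Over all genes, 134 passed the threshold with total gene counts, 583 with every gene that had a count, 377 in the Wald test of DESeq2, 181 at an adjusted p under 0.1 in edgeR, and 113 to 1248 with 1 library left out, the last without KO 2, where the lone library of a group is assumed to vary like the other group. Same-numbered libraries deviated in opposite directions (correlation -0.189 over 11837 genes, and 0.189 for WT 1 with KO 2), and the labels do not say that the numbers pair the libraries in either way. With a replicate block 215 genes passed, and with the crossed replicate block 647. Of the related genes, 12 passed with every gene that had a count, 9 with the crossed replicate block, and 3 to 14 with 1 library left out, 14 of them without KO 2; Camk4 and Prkcq were past the threshold in each of 12 alternative fits. These counts rest on different numbers of tested genes. With every gene that had a count, 119 related genes were among 21241 tested, and in the DESeq2 Wald test 88 among 13416. With either replicate block they were 74 among 11837, as in the main fit. With 1 library left out, 78 to 89 related genes were among 12326 to 13160 tested. Without KO 2, some of the related genes past the threshold were lower in KO. Causes of the shifts in these counts were not tested.

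Per melanoma count, keeping Gpnmb in the list gave folds of the group means of 7.19 for the bound of Nefh, 31.8 for Nrgn and 170 for Kirrel2, against 3.06, 11.9 and 563 without it. The fold of Nrgn per T cell count was 4.33 by group means and 5.16 with 4 T cell genes. With 2 libraries a group and 0 to 5 counts in the lower group, the depth bounds the folds of the 3 genes rather than fixing them. Label, sex-linked genes and T cell markers moved together.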
